A study of Mus musculus with 24 samples.

Results

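The dentate gyrus holds a stem cell niche in which Notch, bone morphogenetic protein (BMP) and Hedgehog signals act on neural precursors, and the genes of these 3 pathways were followed here at the level of DNA methylation. The members were 48 genes, of which 21 belong to Notch, 20 to BMP and 7 to Hedgehog signalling. All CpGs of the methylation table that lie within a member gene as annotated in GENCODE M21 (GRCm38), or within 2 kb of it, were taken, which gave 3074 of the 694379 CpGs, or 0.443%. A CpG stands for the cytosine of 1 strand. Of these CpGs, 1754 lay within 1 kb of an annotated transcript start (promoter CpGs) and 1320 lay elsewhere in the gene or its flanks (body CpGs). The Notch genes held 1347 CpGs, the BMP genes 1163 and the Hedgehog genes 564, and each of the 48 genes held at least 1.

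The micro-dissected dentate gyrus came from female C57BL/6JRj mice in 3 groups of 8. Young STD mice were 3 months old and lived in standard cages, aged STD mice were 17 months old and lived in standard cages, and aged ENR mice were 17 months old and spent their last 3 months in an enriched environment. Methylation was measured by reduced representation bisulfite sequencing (RRBS), which reads CpG-rich fragments after a treatment that converts unmethylated cytosines, and each value is the percentage of reads that kept the cytosine. Where 3 levels follow each other below, the first belongs to the young STD group, the next to aged STD and the last to aged ENR. The tissue is a mixture of cells, so a level cannot be told apart into the share of methylated cells and the share of a cell type.

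In Notch signalling, ligands of the Delta and Jagged families on 1 cell bind Notch receptors on its neighbour, the receptor's inner part is cut free and joins RBPJ and a Mastermind protein in the nucleus, and many genes of the Hes and Hey families are switched on. BMP ligands bind type I and type II receptors that phosphorylate SMAD1, noggin and chordin capture the ligands, SMAD6 and SMAD7 inhibit the cascade, and the Id genes are its classic targets. Sonic hedgehog binds Patched, which releases Smoothened, and Gli proteins, held by Sufu, then act on their targets. Notch and BMP signals are known to keep hippocampal neural stem cells quiescent and Hedgehog signals to support their proliferation. Methylation of CpG-rich promoters generally goes with silence of the gene, whereas gene bodies are often methylated in active and inactive genes alike.

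The stretches below carry the patterns described in the following paragraphs. Each is written 5′ to 3′ on the strand of its gene from GRCm38, and capitals mark the CpGs measured in the table, except in Hes5, where capitals mark the letters GTGGGAA, the core of the RBPJ site, on either strand. Hes5 stands for the unmethylated promoters, Heyl, Bmp4 and Bmp1 for start-site stretches that were partly or fully methylated, Shh for the promoter with the largest age difference among the members, and the last 4 for gene-body stretches with large differences or intermediate levels. The Hes5 sequence is the RefSeq promoter (GRCm38.p6, chr4:154960673-154960922, plus strand, the 250 bases before the start).
Hes5: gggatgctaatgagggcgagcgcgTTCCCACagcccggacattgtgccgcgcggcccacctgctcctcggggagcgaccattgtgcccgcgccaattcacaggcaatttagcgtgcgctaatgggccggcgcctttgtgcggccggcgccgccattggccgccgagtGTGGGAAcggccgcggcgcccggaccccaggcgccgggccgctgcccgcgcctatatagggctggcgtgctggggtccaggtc
Heyl (chr4:123239746-123240045, plus strand, around an alternative start): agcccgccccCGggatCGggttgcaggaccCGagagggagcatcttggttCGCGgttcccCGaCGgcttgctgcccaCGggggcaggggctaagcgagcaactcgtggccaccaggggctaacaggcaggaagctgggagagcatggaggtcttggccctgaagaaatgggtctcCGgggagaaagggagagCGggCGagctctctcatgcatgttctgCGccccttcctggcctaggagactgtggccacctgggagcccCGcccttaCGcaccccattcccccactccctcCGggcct
Bmp4 (chr14:46390694-46390766, minus strand, upstream of the gene): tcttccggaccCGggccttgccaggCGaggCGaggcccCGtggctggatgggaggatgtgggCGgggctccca
Bmp1 (chr14:70505217-70505331, minus strand, inside the gene near an alternative start): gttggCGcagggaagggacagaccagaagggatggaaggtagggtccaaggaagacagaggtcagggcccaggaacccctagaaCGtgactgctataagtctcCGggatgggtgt
Shh (chr5:28466601-28466694, minus strand, exon and coding sequence): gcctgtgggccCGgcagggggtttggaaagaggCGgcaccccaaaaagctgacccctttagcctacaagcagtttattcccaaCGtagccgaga
Maml3 (chr3:51953768-51953976, minus strand, intron): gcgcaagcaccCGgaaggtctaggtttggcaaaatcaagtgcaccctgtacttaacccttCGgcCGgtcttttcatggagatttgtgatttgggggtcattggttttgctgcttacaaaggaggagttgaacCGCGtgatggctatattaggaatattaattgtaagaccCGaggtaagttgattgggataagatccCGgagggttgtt
Notch2 (chr3:98135832-98135974, plus strand, intron): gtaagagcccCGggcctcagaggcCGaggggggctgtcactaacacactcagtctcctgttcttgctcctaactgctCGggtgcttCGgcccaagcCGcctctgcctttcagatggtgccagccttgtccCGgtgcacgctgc
Bmp7 (chr2:172916524-172916716, minus strand, exon and intron edge): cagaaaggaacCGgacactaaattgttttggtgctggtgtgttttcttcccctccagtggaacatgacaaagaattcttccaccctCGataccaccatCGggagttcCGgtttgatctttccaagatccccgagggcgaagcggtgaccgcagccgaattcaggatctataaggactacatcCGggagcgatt
Gli3 (chr13:15704904-15705140, plus strand, intron): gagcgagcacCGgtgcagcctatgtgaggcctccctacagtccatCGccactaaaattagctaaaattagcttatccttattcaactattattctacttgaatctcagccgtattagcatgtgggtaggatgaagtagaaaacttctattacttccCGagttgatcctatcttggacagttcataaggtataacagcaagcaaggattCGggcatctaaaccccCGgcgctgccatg

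Coverage of the whole table ranged from 308751 to 608017 CpGs per mouse. Of the member CpGs, young STD mice covered 1620 to 2077, aged STD mice 1511 to 2563 and aged ENR mice 1435 to 2640, and only 41 were covered in all 24 mice, while 504 were covered in 6 or more mice per group. Values were mostly at the ends of the scale. Of all member values, 88.2% were exactly 0 or 100, against 83.6% in the whole table. Even at the 306 member CpGs whose mean over the groups lay between 20% and 80%, 58.2% of the values were 0 or 100 (56.1% at all such CpGs of the table), and the rest lay between. Promoters of genes that mark the granule neurons of the tissue, Prox1, Rbfox3, C1ql2 and Dsp, were at 0.313% to 3.67%. The astrocyte markers Aqp4, Aldh1l1 and Slc1a3 were at 18.4% to 39.2% and the microglial Aif1 at 72.9% to 85.9%. The oligodendrocyte markers Mbp and Olig1 were at 0.0958% to 12.1% and the endothelial Cldn5 at 1.25% to 3.798%, and the remaining listed markers had too few CpGs.

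The promoters of the pathway genes were largely unmethylated in all 3 groups. Of the 1754 promoter CpGs, 1450 (82.7%) had a mean under 5%, compared with 72.5% of the CpGs in promoters of all annotated genes, and only 13 (0.741%) lay over 80%, compared with 6.33%. Body CpGs were spread over the scale, with 35.5% under 5%, 20.3% between 20% and 80% and 25.2% over 80%, against 26.3%, 22.7% and 37.5% for all genes. These shares are descriptions, since neighbouring CpGs share fragments and are not independent. For each gene, a promoter level and a body level were then formed per mouse, as the mean over its covered CpGs of the deviation from each CpG's overall mean, added back to the mean level of the region. Such a level corrects for which CpGs a mouse covered and can therefore fall slightly below 0% or above 100%. A region was tested with at least 5 CpGs and 3 mice per group, which held for 45 promoters and 39 bodies of members among 30565 regions of all genes. Of the 45 promoters, 36 were under 5%, 7 between 5% and 20% and 2 between 20% and 80%. Of the 39 bodies, 5 were under 5% and 5 over 80%, and in 35 of the 37 genes with both regions the body was the higher one. The 12 regions left out had at most 4 CpGs: the bodies of Dll1, Lfng, Hes6, Hey1 and Chrd and the promoter of Id2 had none, and those of Bmp5 (promoter and body), Jag2, Bmpr1a and Id3 (body) and Id1 (promoter) had 1 to 4.

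**Figure D1:**
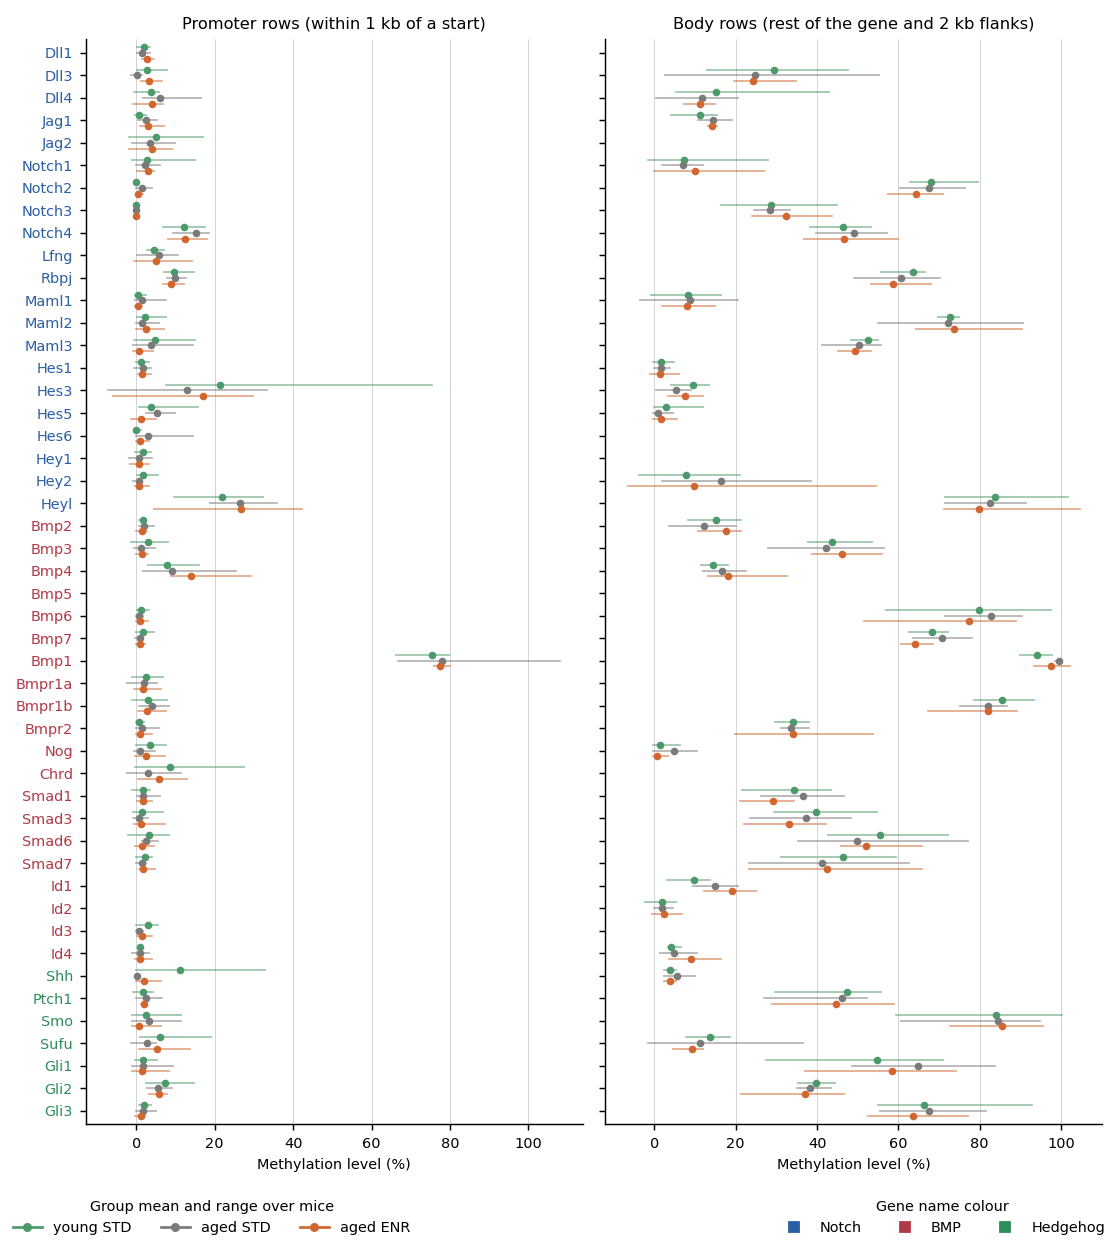
Methylation level (%) of the promoter (left) and body (right) of each pathway gene. Points are group means and lines run from the lowest to the highest mouse, with gene names coloured by pathway. Nearly all promoters sit near 0%, with Bmp1, Heyl, Hes3, Notch4 and Bmp4 to the right of them, while bodies extend from 1.55% (Hes1) to 97.1% (Bmp1).

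Among the Notch ligands, the promoters of Dll1, Dll3, Dll4, Jag1 and Jag2 had group means between 0.149% and 5.97%. Within Jag1, 4 of 5 stretches of at least 3 CpGs (neighbours at most 200 bp apart) were under 10%, and the fifth, across an exon in the downstream part of the gene, was at 90.3%. The receptor promoters were as low, except that of Notch4. Notch1, Notch2 and Notch3 were between 0% and 2.95%, and Notch4 was at 12.2% ± 4.03 (SD, n = 7), 15.1% ± 3.11 (n = 7) and 12.4% ± 2.80 (n = 8). The 32 promoter CpGs of Notch1 all lay in an intron, 556 to 960 bases from an alternative start. None was measured near the 5′ end of that gene. The Notch4 promoter mixed unlike places. Upstream of the gene 3 CpGs were at 84.0%, 93.0% and 73.5%, and 25 CpGs near an alternative start inside it at 0.311%, 1.35% and 1.1%. The receptor bodies differed more widely. The Notch1 body, of only 6 CpGs, lay between 7.02% and 10.1%, that of Notch3 between 28.5% and 32.4%, that of Notch4 between 46.3% and 49.1% and that of Notch2 between 64.3% and 68.0%.

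RBPJ is the DNA-binding partner of the cut receptor, and Mastermind proteins complete the complex. The Rbpj promoter stood at 8.90% to 9.93% in the 3 groups, and its starts were unlike each other. At 1 alternative start 2 CpGs were at 97.0%, 93.9% and 95.1%, while the 2 stretches with the other 24 CpGs had group means of at most 3.45%. Maml1, Maml2 and Maml3 had promoters of 0.473% to 4.86%. The body of Maml1 was at 8.06% to 8.80% and that of Maml2 at 72.1% to 73.8%. Maml3, whose body held 204 of the 570 Notch body CpGs, was at 52.4% ± 2.28, 50.4% ± 4.49 and 49.4% ± 2.98 (SD, n = 8 each). This middle level was a mixture of unlike places: of its 32 stretches with at least 3 CpGs, 7 were under 10%, 14 over 80% and 11 between. The stretch printed above was intermediate as a whole, at 55.4%, 56.3% and 57.6%.

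The Hes and Hey genes code for transcriptional repressors, many of them switched on by Notch, while Hes6 is known to antagonise Hes1. At the starts that were measured, their promoters split into an unmethylated and a partly methylated set. Hes1, Hes5, Hes6, Hey1 and Hey2 had promoters between −0.000627% and 5.31%, and the 16 CpGs measured in the Hes5 sequence above averaged 0.356%, 3.41% and 0.253%. That sequence holds GTGGGAA 2 times, with first bases 226 and 83 bases before the start. The Hes3 promoter was at 21.4% ± 24.1 (n = 7), 12.8% ± 13.8 (n = 7) and 16.9% ± 12.3 (n = 8). The Heyl start-site stretch, 17 CpGs around an alternative start, had 21.7% ± 7.70 (n = 6), 26.6% ± 5.73 (n = 6) and 26.8% ± 11.6 (n = 7), with single CpGs from 0% to 73.6%. Heyl and Bmp1 were the 2 members with a promoter between 20% and 80%. No CpG was measured near the 5′ end of Heyl, so its level describes the alternative start only.

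Among the BMP ligands, the promoters of Bmp2, Bmp3, Bmp6 and Bmp7 lay between 0.597% and 2.94%. Bmp4, a ligand made in the dentate gyrus niche, was higher and rested on 13 CpGs, of which the 5 printed above, 35 to 86 bases upstream of the gene, carried most of the signal with 17.2%, 22.6% and 28.2%. Bmp1, which codes for a protease that processes collagen and chordin and is no ligand of the pathway, had the most methylated promoter of all members at 75.4% ± 4.79 (n = 7), 78.1% ± 15.5 (n = 6) and 77.4% ± 1.42 (n = 6). The CpGs printed for Bmp1, 130 to 229 bases from an alternative start inside the gene, had group means from 96.7% to 99.86%, whereas the 2 promoter CpGs nearer the 5′ end of the gene were at 0.556%, 12.5% and 1.85%. Ligand bodies ran from 12.1% to 17.7% in Bmp2 and 14.5% to 18.2% in Bmp4 through 42.1% to 46.3% in Bmp3 and 64.1% to 70.8% in Bmp7 up to 77.5% to 82.9% in Bmp6.

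Receptor promoters (Bmpr1a, Bmpr1b and Bmpr2) were between 0.738% and 3.99%, and receptor bodies contrasted, with 33.7% to 34.0% in Bmpr2 and 82.1% to 85.6% in Bmpr1b. Noggin, the secreted antagonist that binds BMP ligands, was unmethylated at its promoter (0.822% to 3.59%) and at 17 CpGs in its flanks (0.715% to 4.88%). The Chrd promoter was at 3.06% to 8.70%. Of the SMADs, Smad1 transmits BMP signals, Smad3 transmits those of the related TGF-beta and activin ligands, and Smad6 and Smad7 inhibit. All had promoters of 0.757% to 3.17% and intermediate bodies, from 29.2% in Smad1 of aged ENR mice to 55.4% in Smad6 of young STD mice. The Id genes, inhibitors of differentiation and targets of the pathway, were low at most measured CpGs. Promoters of Id3 and Id4 were at 0.648% to 2.95%, the 54 body CpGs of Id2 at 1.74% to 2.36%, the Id4 body at 4.04% to 9.08% and the Id1 body, measured at 8 flanking CpGs, at 9.65% to 19.0%. Of the flanking CpGs, 3 beside Id3 were at 25.6%, 54.5% and 32.7% and 2 beside Id1 at 56.8%, 36.3% and 58.1%.

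Shh was unmethylated along nearly all of its measured length. Its 149 body CpGs averaged 3.94% ± 1.02, 5.56% ± 2.48 and 3.94% ± 1.02 (SD, n = 8 each), and 12 of its 13 stretches with at least 3 CpGs were under 10%. The remaining stretch, in its last exon, was at 15.5%. The genes that receive and transmit the signal had unmethylated promoters (Ptch1, Smo, Sufu, Gli1, Gli2 and Gli3, 0.806% to 7.37%), and their bodies rose from Sufu (9.29% to 13.6%) over Gli2 (36.9% to 39.8%), Ptch1 (44.6% to 47.4%), Gli1 (54.7% to 64.8%) and Gli3 (63.5% to 67.5%) to Smo (84.1% to 85.5%). The spread between mice was wide in the shortest of these, with an SD of 18.1 points for the 7 body CpGs of Smo in young STD mice (n = 5). The coding stretch of Shh printed above also lies within 9530036O11Rik and Gm26894, transcribed from the opposite strand.

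**Figure D2:**
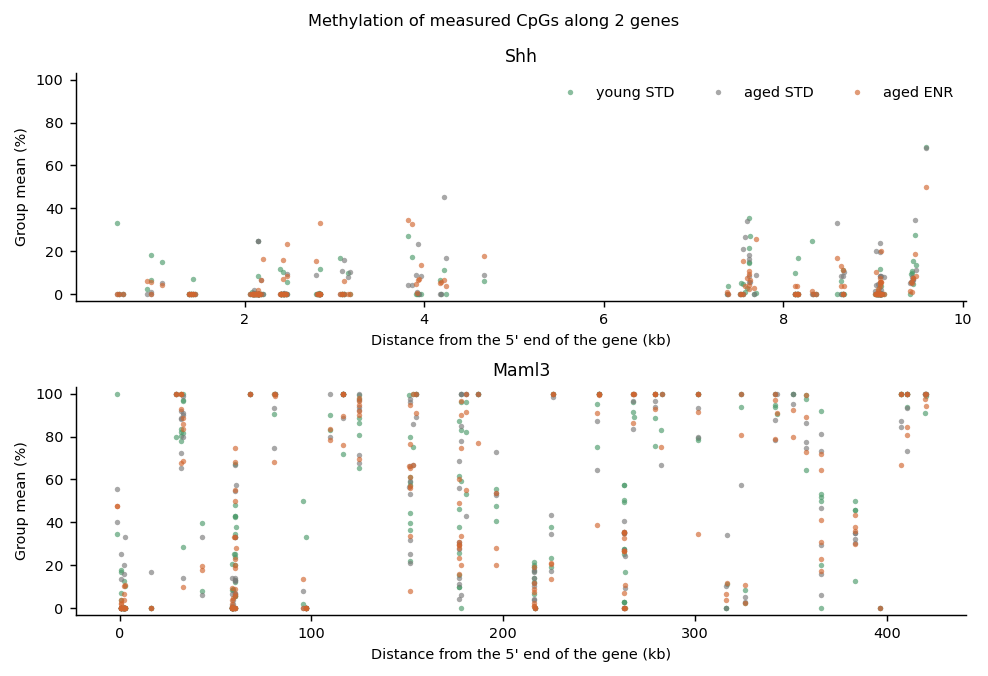
Group means (%) of each measured CpG of Shh (top) and Maml3 (bottom) against the distance from the gene's 5′ end in kb, coloured by group. Nearly all Shh CpGs lie near 0% along the gene, whereas Maml3 alternates between places near 0%, places near 100% and intermediate places.

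With distance from the nearest start of the gene, the mean level stayed low further into the pathway genes than into all protein-coding genes. At 1 to 2 kb downstream the means were 7.05% for Notch (99 CpGs), 9.34% for BMP (117) and 6.78% for Hedgehog genes (11), against 28.0% for all protein-coding genes. At 2 to 5 kb they were 14.3%, 18.05% and 8.57%, against 40.5%. At 20 to 100 kb Notch genes were still lower with 54.7%, while BMP genes with 73.4% and Hedgehog genes with 67.4% (over 16 CpGs) were above the 59.4% of all protein-coding genes. In the last bin, beyond 100 kb, Notch genes were at 84.0% (69 CpGs) and Hedgehog genes at 76.2% (31 CpGs). Both were above the 59.3% of all protein-coding genes there. Shh supplied most Hedgehog CpGs between 2 and 20 kb, and Maml3 supplied most Notch CpGs between 20 and 100 kb. These profiles pool CpGs that share fragments and were not tested.

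**Figure D3:**
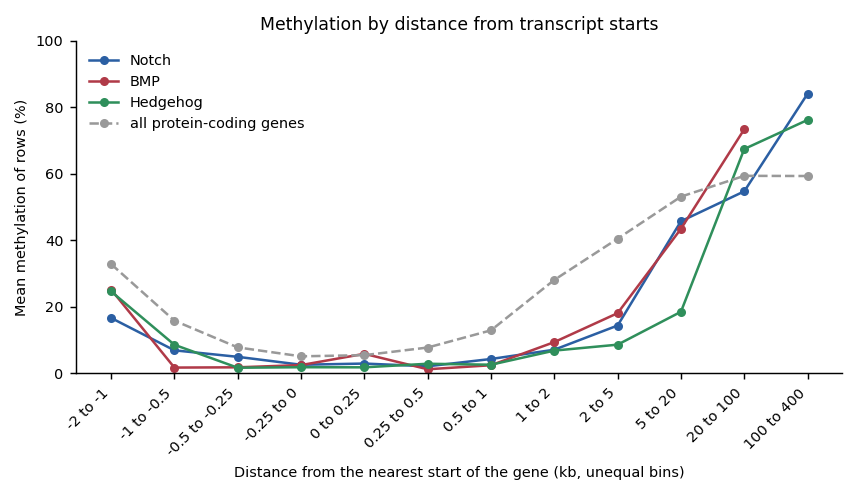
Mean methylation (%) of the CpGs of each pathway, over all 24 mice by the 3 group means, in unequal bins of distance (kb) from the nearest transcript start of the gene, with all protein-coding genes as the dashed line. The pathway lines stay below the dashed line from 0.25 to 20 kb downstream. The 182 member CpGs more than 2 kb upstream of their nearest start were left out.

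Whether age moved these genes was asked by comparing aged STD with young STD mice. No member region was called by limma (adjusted p under 0.05 over all 30565 regions), where the background was 0.00327%, or 1 region of all genes. At an unadjusted p under 0.05, 7 of the 84 member regions (8.33%) passed, against 5.62% of all regions, and the lowest adjusted p of a member was 0.755. The median age difference was −0.294 points over the member regions and −0.0715 over all regions. The intervals limit what could have been present. In 66 of the 84 regions the 95% interval of the age difference lay within 10 points of 0, and in 30 within 5 points. Among all 30565 regions these counts were 18108 and 10175. By class, 40 of 45 promoters and 26 of 39 bodies lay within 10 points, and 27 promoters and 3 bodies within 5. Member promoters had a median level of 2.07%, so a limit of 10 points says little about a fall there. At single CpGs, limma called none of the 3074 (a difference over 25 points with an adjusted p under 0.05), against 0.00475% of all CpGs, and 39 (1.27%) had an unadjusted p under 0.05, against 2.23% of all. A difference over 25 points without any test was present at 160 member CpGs (5.2%), against 9.16% of all CpGs. Of these, 75 were higher (background 4.15%) and 85 lower (5.01%). Most lay in bodies: 133 of 1320 body CpGs (10.1%, against 12.2% of body CpGs of all genes) and 27 of 1754 promoter CpGs (1.54%, against 4.47%).

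Whether enrichment moved them was asked by comparing aged ENR with aged STD mice, so both comparisons share the aged STD mice. Again no member region was called by limma, against 0.00982% of all regions, and 5 of 84 (5.95%) had an unadjusted p under 0.05, against 4.82%. The lowest adjusted p of a member was 0.951, and the median difference was −0.107 points, compared with −0.230 over all regions. The 95% interval lay within 10 points of 0 in 62 regions (41 of 45 promoters and 21 of 39 bodies), against 18322 of all 30565 regions. At single CpGs, none was called (background 0.00432%), 45 (1.46%) passed an unadjusted p under 0.05 (1.9% of all), and 160 (5.2%) differed by over 25 points, compared with 8.33% of all CpGs. Of these, 70 were higher (3.82%) and 90 lower (4.51%), with 133 in bodies (background 11.3%) and 27 in promoters (3.92%). Between aged ENR and young STD mice no region (background 0.00982%) and no CpG (0.00504%) was called by limma. Unadjusted, 6 regions (7.14%, against 5.45%) and 38 CpGs (1.24%, against 2.18%) passed, and 158 CpGs (5.14%) differed by over 25 points, against 8.43%.

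**Figure D4:**
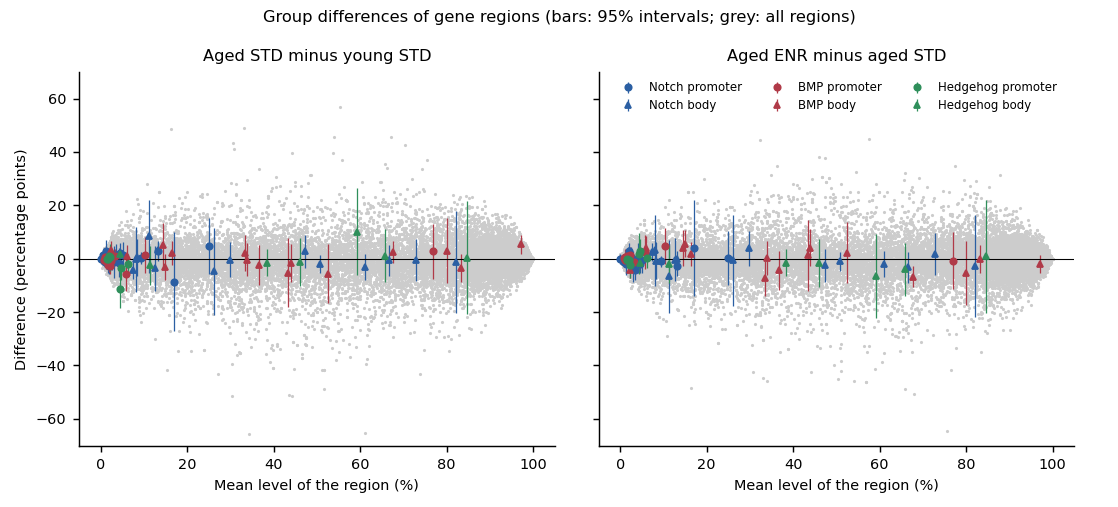
Difference in percentage points of each gene region against its mean level (%), for aged STD minus young STD (left) and aged ENR minus aged STD (right). Coloured points are member promoters (circles) and bodies (triangles) with limma's 95% intervals, and grey points are all 30565 regions. Members lie within the grey cloud, between −11.2 and 10.1 points on the left and between −7.40 and 5.58 on the right.

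The Shh promoter had the largest age difference among Hedgehog promoters. Young STD mice ran from 0% over a median of 7.16% to 32.9% (n = 8), aged STD mice from −0.405% over 0% to 1.00% (n = 8), and aged ENR mice from 0% over 0.702% to 6.35% (n = 7). The young mice were spread widely, no aged STD mouse exceeded 1.00%, and the ranges overlapped. The level rests on 6 CpGs, all downstream of the only annotated start. Of these, 3 lay in an exon, 573 to 645 bases from the start, and 3 in an intron from 906 bases on. No CpG at or upstream of the start was measured. The difference of −11.2 points (95% interval −18.6 to −3.79) did not pass limma's adjustment (adjusted p = 0.758). Its exact two-sided permutation p was 0.00109 before any adjustment, over 12870 relabelings. Leaving out 1 mouse at a time moved the difference between −12.8 and −7.94 points, and without aged STD replicate 5 it was −11.2. With a promoter of 2 kb it was −7.21. Between aged ENR and aged STD mice the difference was 1.92 points (−5.73 to 9.56, adjusted p = 0.978), with an exact permutation p of 0.0353 and a limma p of 0.608 before adjustment. Between aged ENR and young STD mice it was −9.26 points (−16.9 to −1.62, adjusted p = 0.867 in limma), with an exact permutation p of 0.069.

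The other promoters singled out by size showed differences within the spread of their mice. Hes3, a Hes gene expressed in neural precursors, differed by −8.60 points with age (95% interval −27.3 to 10.1, adjusted p = 0.908) and by 4.08 with ENR (−14.0 to 22.1, adjusted p = 0.979). Its young STD values ran from 7.53% over 15.2% to 75.4%, and without the highest mouse, young STD replicate 4, the age difference was 0.628. Its ENR difference ran from 0.6405 (without aged STD replicate 3) to 7.71 (without aged ENR replicate 1) when 1 mouse was left out. At Bmp4, aged STD mice ran from 1.66% over a median of 8.40% to 25.3% and aged ENR mice from 8.73% over 11.5% to 29.2% (n = 8 each). The groups overlapped, and the difference was 4.74 points with ENR (−1.94 to 11.4, adjusted p = 0.951), or 2.49 without aged ENR replicate 1. The promoter of chordin differed by −5.63 points with age (−12.2 to 0.904, adjusted p = 0.891). It was −2.31 without young STD replicate 3 and turned to 0.7795 with a promoter of 500 bp. The Sufu promoter differed by 2.74 with ENR (−1.85 to 7.33, adjusted p = 0.951), by 1.63 without aged ENR replicate 5 and by −0.806 with a promoter of 2 kb. In none of these did the groups separate.

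Of the bodies with the largest differences, that of Gli1, the Hedgehog target and effector, had ranges of 27.5% to 70.9% (median 58.0%, n = 6), 48.6% to 83.7% (67.9%, n = 7) and 37.0% to 74.3% (62.3%, n = 7). Its differences were 10.1 points with age (95% interval −6.12 to 26.4, adjusted p = 0.892) and −6.41 with ENR (−22.0 to 9.20, adjusted p = 0.959), and the groups overlapped in part. Without young STD replicate 7 the age difference was 4.745 and without aged STD replicate 7 it was 6.52, while the ENR difference was −2.46 without aged STD replicate 7 and −3.31 without aged ENR replicate 5. The Hey2 body, 9 CpGs in the upstream flank, differed by 8.43 points with age (−5.31 to 22.2, adjusted p = 0.894) and by −6.58 with ENR (−20.3 to 7.16, adjusted p = 0.952), with 1 aged ENR mouse at 54.5% against 7.68% or less in the others. Without that mouse, aged ENR replicate 1, the ENR difference was −12.96, and without aged STD replicate 2 the differences were 5.31 with age and −3.27 with ENR. The ENR difference was −4.38 without aged STD replicate 4 and −4.26 without aged ENR replicate 6. The Smad6 body differed by −5.58 points with age (−16.7 to 5.49, adjusted p = 0.900), and by −9.46 without aged STD replicate 1, −3.63 without aged STD replicate 5 and −2.95 without young STD replicate 7. Smad1 differed by −7.40 points with ENR (−13.9 to −0.894, adjusted p = 0.951, exact permutation p = 0.0143 unadjusted). Aged STD mice had Smad1 levels of 26.1% to 46.6% (median 36.9%, n = 7) and aged ENR mice 21.2% to 34.3% (median 29.6%, n = 8). The sign of the Smad1 difference depended on the summary, since the plain mean of the percentages gave 5.198.

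**Figure D5:**
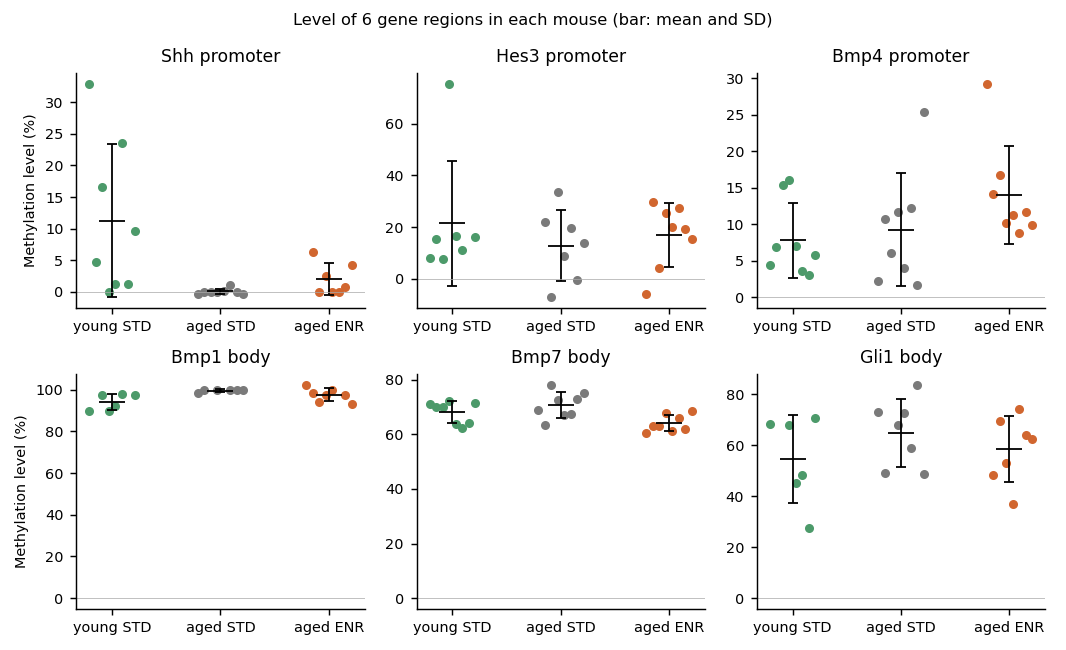
Level (%) of 6 gene regions in each mouse, by group, with black bars for the mean and SD. Young STD mice spread up to 32.9% at the Shh promoter while aged STD mice stay at or under 1.00%, single mice stand high at the Hes3 and Bmp4 promoters, and the groups overlap in the Bmp7 and Gli1 bodies.

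The regions with an unadjusted p under 0.05 were named after their values were seen. For age, Jag1, Bmp1 and Nog bodies and the Notch2 promoter were higher in aged STD mice (by 3.199, 5.49, 3.43 and 1.31 points), and the Hes3 body and the Id3 and Shh promoters were lower (by −4.17, −2.31 and −11.2 points). The plain mean of the percentages gave 11.15 for Jag1. Leaving out 1 mouse took the Jag1 difference down to 1.93 and that of Nog to 2.09, the exact permutation p was 0.069 for Jag1 and 0.113 for Nog, and limma's unadjusted p for Nog was 0.0764 without aged STD replicate 5. The Bmp1 body had values of 89.9% to 97.7% (median 94.6%, n = 6) in young STD and 98.5% to 100% (99.6%, n = 6) in aged STD mice. It was the 1 member region whose groups did not overlap for age, where 0.288% of all regions had groups that did not overlap, and none did so for ENR (0.288%). Of its 10 CpGs, 9 lie upstream of Bmp1 within Sftpc, a gene for a lung surfactant protein, so the value belongs to that gene's span as well. For ENR, the Dll3 promoter and the Bmp2 body were higher in aged ENR mice (by 3.07 and 5.58 points) and the Bmp7, Nog and Smad1 bodies lower (by −6.67, −4.16 and −7.40 points). The Bmp2 difference was −3.40 by the plain mean of the percentages, and without aged STD replicate 5 its unadjusted p in limma was 0.0846. The Nog difference reached −2.61 when 1 mouse was left out. For aged ENR against young STD, the Jag1 promoter and the Bmp1, Id1 and Id4 bodies were higher (by 2.24, 3.56, 9.34 and 5.04 points). The Bmp7 body and the Shh promoter were lower (by −4.11 and −9.26 points). The exact permutation p was 0.0909 for Bmp1, 0.0714 for Id1 and 0.069 for Shh, and the lowest adjusted p in limma was 0.819.

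Bmp7 codes for a BMP ligand made by several brain cell types and the meninges. Its body, 47 CpGs, had ranges of 62.5% to 72.3% (median 70.1%), 63.5% to 78.2% (70.8%) and 60.6% to 68.6% (63.2%), with n = 8 each. The difference of −6.67 points with ENR had a 95% interval of −10.8 to −2.57 points and an adjusted p of 0.951 (exact permutation p = 0.00575 unadjusted). It was −7.14 without aged STD replicate 5 and between −7.71 and −5.50 when each mouse was left out, and −10.1 by the plain mean of the percentages. The 5 CpGs of the exon stretch printed above had 86.6%, 83.7% and 62.7%, while the 13 CpGs of an intronic stretch further from the start were at 97.9%, 99.83% and 99.05%. An intronic stretch of 4 CpGs nearer the start was higher with ENR, at 26.4%, 4.53% and 18.4%.

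The single CpGs with the largest ENR difference of each pathway come next, and their part in the region averages was not tested. The Gli3 CpG at chr13:15704949, in an intron 240969 bases from the start, was at 0% in 6 of 7 young STD mice and 5 of 6 aged STD mice and had a median of 71.2% in aged ENR mice (0% to 100%, n = 6). Its ENR difference was 60.7 points (95% interval 20.7 to 100.7), the largest of a Hedgehog CpG, with an adjusted p of 1.00 over all CpGs. The Notch2 CpG at chr3:98135963, also intronic, had medians of 73.4%, 100% and 20% (n = 6 each), an ENR difference of −48.2 points (−87.9 to −8.43), and 2 neighbours within 50 bases at 78.2%, 82.5% and 66.4%. Neither CpG passed the adjustment, and both had values at 0% and at 100% within a group of mice. The intronic Bmpr1b CpG at chr3:142093439 was covered in all 24 mice and differed by 30.4 points with ENR (0.614 to 60.2, adjusted p = 1.00 in limma), from a median of 35.8% to 62.7%.

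With age, the Maml3 CpG at chr3:51953841 differed by 39.1 points (95% interval −7.97 to 86.1), with medians of 75.7%, 100% and 67.4% (n = 6 each). The CpG in the flank of Id3 at chr4:136147079 differed by 31.6 points (−16.0 to 79.1), from a median of 16.7% (n = 8) to 72.4% (n = 6). The Shh CpG at chr5:28466683, in the printed coding stretch, was at 100% in 2 of 6 young STD mice and at 0% in every other mouse with a value, so its −33.3 points (−69.5 to 2.88) stood on 2 mice. The adjusted p of each of these CpGs was 1.00 in limma.

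Summed over a pathway, the levels of single mice were close together, and no test was made of these sums. Notch promoters had ranges of 2.51% to 3.91% (median 3.44%), 3.24% to 5.23% (4.01%) and 2.74% to 4.44% (3.61%). BMP promoters had medians of 3.32%, 2.88% and 3.06%, and Hedgehog promoters 3.05%, 2.31% and 2.35%. Body medians were 40.7%, 40.3% and 39.3% for Notch, 38.1%, 38.6% and 37.6% for BMP and 25.2%, 25.1% and 24.1% for Hedgehog genes. The groups overlapped in all 6 summaries. Aged STD replicate 5 was the lowest mouse of its group for Notch (32.8%), BMP (36.4%) and Hedgehog bodies (21.6%). Without it the aged STD means were 40.5%, 38.8% and 26.4% instead of 39.6%, 38.5% and 25.8%.

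Per gene, the CpGs over 25 points are read against the shares among all body CpGs (12.2% for age, 11.3% for ENR) and all promoter CpGs (4.47% and 3.92%), since genes differ in their mix of both. Maml3 held 24 for age and 23 for ENR of its 213 CpGs (11.3% and 10.8%), of which 204 were body CpGs, Gli2 14 and 14 of 94 (14.9% in both; 62 body CpGs) and Smad3 9 and 9 of 66 (13.6% in both; 51 body CpGs). The highest share was that of Heyl for age (5 of 24, 20.8%) and that of Gli2 for ENR. Bmp5 with 6 CpGs, Hes6 with 23, Hey1 with 28 and Maml1 with 51 held none in either comparison. No test was made of these shares.

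A list of further genes of the 3 pathways was counted in the same way. It held 81 genes (27 Notch, among them the gamma-secretase subunits, 32 BMP and 22 Hedgehog), of which 77 had at least 1 of 124 tested regions. None was called by limma in either direction for age, ENR or ENR against young. At an unadjusted p under 0.05, 5 passed for age (4.03%, against 5.62% of all regions; 3 higher, 2 lower) and 4 for ENR (3.23%, against 4.82%; 3 higher, 1 lower), and the lowest adjusted p was 0.854 and 0.951.

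In the RefSeq promoter sequences (250 bases before to 50 after the start, both strands), 35 of the 48 members were found with 41 sequences. GTGGGAA occurred in 4 of them (9.76%; Hes5, Hey2, Lfng and Bmpr2), against 6.38% of all 32851 promoters. GGCGCC, a GC-rich element bound by SMADs, occurred in 10 (24.4%), against 11.9%, and GACCACCCA, the Gli site, in none, against 0.253%. These letters are descriptions of the windows only.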

How the data were processed

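DNA was extracted from the dentate gyrus of 24 mice and RRBS libraries were sequenced. The authors trimmed the reads, aligned them to mm10 and called methylation, and the deposited values are the percentage of methylated reads per CpG and mouse, made with methylKit after CpGs read fewer than 10 times, or covered beyond the 99.9th percentile, had been dropped. The submitters' processing notes name Trim Galore 0.4.0, cutadapt 1.8.1, Bismark 0.16.1 and methylKit 1.5.2, and the paper names other versions of some of these. Read depths per CpG were not used here, so the counting error behind a percentage is unknown.

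CpGs were assigned to genes with GENCODE M21. Promoters reach 1 kb from any transcript start, and bodies hold the rest of the gene and its 2 kb flanks. CpGs and gene regions (at least 5 CpGs; a mouse needs 3 CpGs and 25% of them) were each fitted with a group-means model in limma 3.58.1 (R 4.3.3) over all 24 mice, with Benjamini-Hochberg adjustment over the whole table. Group labels came from the sample titles. Exact two-sided permutation tests over mice were run for the named regions, and the scripts were tested on simulated data. p-values measure the spread between these mice, and a p that misses the threshold does not show that values did not differ. Values per mouse are given for the region with the largest age and the largest ENR difference of each pathway and class (at least 5 mice per group), and for the CpG with the largest of each per pathway (at least 6 mice per group). Other genes with values were named after their values were seen. The members and lists were chosen with earlier results of these data known. Alternatives were other promoter widths, filters, summaries, limma settings, a replicate block and leaving out each mouse.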

Additional observations from a re-analysis of the deposited data

Results flagged for a closer look

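In 14 of 66 groups of mice 1 value lay far from the others. Chance gives about 1 in 20 for groups not chosen by their values, but most of these regions and CpGs were chosen for their large differences, which a single far mouse can make, so the 2 rates cannot be compared. Among promoters, Hes3 in young STD replicate 4 was at 75.44% (others 7.53% to 16.45%), Chrd in young STD replicate 3 at 27.44% (others up to 8.263%) and Sufu in young STD replicate 7 at 19.18% (others up to 7.31%). Bmp4 was at 25.34% in aged STD replicate 8 (others up to 12.26%) and at 29.21% in aged ENR replicate 1 (others up to 16.76%), and Shh was at 1.0% in aged STD replicate 6 (others up to 0.1794%). Among bodies, Hey2 was at 54.5% in aged ENR replicate 1 (others up to 7.678%), Smad6 at 65.91% in aged ENR replicate 2 (others up to 53.27%) and Smad1 at 21.16% in aged ENR replicate 4 (others from 29.24%). The Gli3 CpG at position 15704949 was at 100% in young STD replicate 4 and at 17.86% in aged STD replicate 8, with the other mice of each group at 0%. The Maml3 CpG at position 51953841 was at 86.89% in aged STD replicate 6 (others from 98.84%). Over whole pathways, the Notch bodies of aged STD replicate 5 were at 32.78% (others from 38.5%), and the Hedgehog promoters of aged STD replicate 3 were at 3.93% (others up to 2.687%). The cause was not tested.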

How the results depend on the processing

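No member region was called under any setting run. With a replicate block, limma called 3 member CpGs for age and 3 for ENR (Jag1 and Smo, where 11 of 12 or 13 mice were at 100%), against 505 and 443 CpGs in the whole table. The shared numbers did not pair the mice: deviations of same-numbered mice had a mean correlation of −0.00387 (−0.0405 to 0.0205) over 8628 CpGs. The count of member CpGs over 25 points for age, ENR and ENR against young depended on how many CpGs were left. It was 30, 26 and 34 of the 916 with at least 5 mice per group, and 0, 1 and 0 of the 41 with all 24 mice. With a limit of 10 points it was 654, 610 and 612 of the 3074. Leaving out 1 mouse, with 2692 to 3045 member CpGs left, gave 143 to 174, 136 to 171 and 128 to 165. No share of all CpGs is given for these settings, so these counts cannot be read against the whole table. The sign turned for the Hes3 promoter with age when 1 mouse was left out (range −12.02 to 0.6284, the highest without young STD replicate 4), for the Chrd promoter with age (0.7795, promoter of 500 bp), for the Smad1 body with ENR (5.198, plain mean) and for the Sufu promoter with ENR (−0.8057, promoter of 2 kb). By the plain mean, the Bmp2 body turned with ENR as well (−3.40). Without a turn, values moved by over 1.5 times with a promoter of 500 bp (Gli1 body 2.298 with age and −1.413 with ENR, Hey2 body 3.331 and −0.4041), with 2 kb (Shh promoter −7.208 with age, Bmp4 promoter 2.649 with ENR), with the gene span alone (Gli1 body −2.939 with ENR), with CpGs of at least 20 mice (Chrd promoter −10.32 with age, Sufu promoter 1.139 with ENR), by the plain mean (Hes3 promoter 2.296 and Sufu promoter 1.751 with ENR, Jag1 body 11.15 with age, Bmp7 body −10.07 with ENR) and with the replicate block (Hes3 promoter 6.646 with ENR). The causes were not tested. None of the named regions passed the adjusted threshold under a setting run. Few CpGs shared by all mice and unknown read depth limit what single CpGs can show.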
